A study of Mus musculus with 12 samples.

Results

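Hobit, encoded by Zfp683, is a zinc finger transcription factor of lymphocytes that stay in tissues. The genes described here are Zfp683 and 8 genes of the tissue-residency program around it, 9 of the 52632 genes measured in CD4 T cells sorted from mouse kidneys. The other 8 are the transcription factors Prdm1 and Runx3, the surface proteins Cxcr6, Itga1, Itgae and Cd69, the signalling regulator Rgs1 and the chemokine Xcl1. The set was chosen by name, with the values of injured and control kidneys known: in these same libraries Zfp683, Xcl1 and Cxcr6 had been seen to be lower after ischemia-reperfusion injury (IRI), so the IRI differences of the 9 genes are given as descriptions without a test. All 9 averaged over 1 FPKM (fragments per kilobase of transcript, scaled to the fragments of the library), the level from which the 19288 tested genes were kept.

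Each of 4 groups held 3 RNA sequencing libraries. KO IRI came from CD4 Keap1 KO mice on the C57BL6/J background, bred in house, whose renal pedicles on both sides were clamped for 30 min and whose kidneys were taken 24 h later. KO control came from mice of that genotype in the control group. WT IRI came from C57BL6/J mice bought from the Jackson Laboratory and clamped in the same way, and WT control from such mice in the control group. All cells were purified on Percoll and sorted as CD4 T cells. The labels do not say how Keap1 was deleted, in which cells, whether controls had sham surgery, the age of the mice, or whether replicates are different animals, so p-values measure only the spread between these libraries. Mouse source and genotype cannot be told apart. Keap1 is the adaptor that marks the stress factor NRF2 for degradation, and the comparisons ask how the injury and its loss relate to these T cells.

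Resident memory T cells settle in a tissue and do not recirculate. In mice, Hobit and Blimp-1 (Prdm1) act together to repress genes of tissue exit, and Runx3 promotes residency, best known in CD8 T cells. Integrins anchor the cells, CD69 keeps the exit receptor S1PR1 off the cell surface, and the same factors are also used by natural killer (NK) T cells and by the innate lymphocytes called ILC1. Hobit, XCL1 and CD49a (Itga1) are thus found in several kinds of lymphocyte, not in CD4 T cells alone.

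Promoters of 3 of the genes that were lower after IRI are shown because these genes were lower together. Each runs from 250 bases before to 50 bases after the annotated start, 5′ to 3′ on the gene's strand, and was taken from RefSeq on GRCm38.p6. Xcl1 is at chr1:164935473-164935772 on the minus strand, Cxcr6 at chr9:123806227-123806526 on the plus strand and Itga1 at chr13:115101915-115102214 on the minus strand. Capitals mark matches, on either strand, to a RUNX motif (TGTGGT, reverse ACCACA) or a T-box motif (TCACAC, reverse GTGTGA).
Xcl1: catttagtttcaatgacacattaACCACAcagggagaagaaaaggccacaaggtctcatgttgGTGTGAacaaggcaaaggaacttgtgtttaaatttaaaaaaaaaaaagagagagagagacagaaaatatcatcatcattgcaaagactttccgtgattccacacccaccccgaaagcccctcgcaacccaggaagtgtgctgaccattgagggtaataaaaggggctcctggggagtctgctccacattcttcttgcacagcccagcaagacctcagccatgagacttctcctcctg
Cxcr6: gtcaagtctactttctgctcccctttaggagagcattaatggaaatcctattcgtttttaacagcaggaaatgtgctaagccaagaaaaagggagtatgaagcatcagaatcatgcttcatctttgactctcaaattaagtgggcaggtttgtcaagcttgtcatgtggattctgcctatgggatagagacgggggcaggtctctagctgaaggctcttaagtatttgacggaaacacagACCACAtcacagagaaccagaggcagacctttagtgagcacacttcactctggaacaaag
Itga1: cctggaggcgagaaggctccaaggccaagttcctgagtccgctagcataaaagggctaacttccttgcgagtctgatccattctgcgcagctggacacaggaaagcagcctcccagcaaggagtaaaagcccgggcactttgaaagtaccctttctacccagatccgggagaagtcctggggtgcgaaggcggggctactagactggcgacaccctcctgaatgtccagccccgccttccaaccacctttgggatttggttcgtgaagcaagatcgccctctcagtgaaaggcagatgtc
The Xcl1 window held a RUNX match beginning 227 bases before the start and a T-box match 187 bases before it. The Cxcr6 window held a RUNX match 10 bases before the start, and the Itga1 window held neither motif. Among 32851 promoters of this length, 16.8% held the RUNX letters and 14.5% the T-box letters, so the matches are descriptions of these windows. The core letters of the Blimp-1 motif (GAAAG, reverse CTTTC) were in all 3 windows and in 57.3% of all promoters, and no match overlapped one of another motif in these windows. Of the 9 genes, 5 had a promoter entry, and of the entries for Runx3 the one at its annotated gene start held a pair of RUNX matches.

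The 12 libraries had summed values of 739969 to 2089551 FPKM, and the depth behind each value is unknown. The 3 most abundant genes took 17.7% to 24.8% of the sum in KO control 1, WT IRI 3 and WT control 3 and 32.5% to 63.1% in the other libraries. Without these 3 libraries, which stand apart in this way, the IRI minus control difference averaged over genotype was -4.02 for Zfp683 (-4.00 with them), -3.14 for Xcl1 (-3.24), -2.44 for Cxcr6 (-2.46) and -1.78 for Itga1 (-1.83), on the log2(FPKM + 1) scale. As a check of genotype, the NRF2 target Nqo1 was at 3.38 to 7.75 FPKM in KO libraries and 0 to 0.543 FPKM in WT libraries, while Keap1 itself was at 4.59 to 7.77 FPKM in KO and 6.03 to 9.87 FPKM in WT libraries. Values of genes that the annotation places on the opposite strand at the same site may share reads, as the strand setting is not stated: this concerns Fyco1 for Cxcr6, Haspin for Itgae, Gm10734 for Itga1, Gm16224 for Runx3 and Gm20743 for Xcl1. Pelo and Gm49395 lie on the Itga1 strand within its span. Fyco1 was at 9.92 to 19.8 FPKM in IRI libraries and 10.8 to 20.4 FPKM in control libraries, whereas Gm20743 was lower in IRI as Xcl1 was, at 0.958 to 2.88 FPKM in IRI and 4.28 to 12.6 FPKM in control libraries.

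The 9 genes split after IRI. Zfp683, Xcl1, Cxcr6 and Itga1 stood lower in all 6 IRI libraries than in all 6 control libraries. That ordering held for 2.19% of all tested genes. None of the 9 stood higher in all 6 IRI libraries, against 1.46% of tested genes. Within KO these 4 genes were lower without overlap, as were 9.15% of tested genes, and within WT none of the 9 was higher without overlap, against 9.28%. With the genotypes pooled, the other 5 genes overlapped between the 2 conditions. Within KO, Prdm1 and Rgs1 were higher in IRI without overlap, as were 8.21% of tested genes. Within WT, Zfp683, Xcl1, Cxcr6, Itga1 and Cd69 were lower in IRI without overlap, as were 14.4% of tested genes. Zfp683, Xcl1, Cxcr6 and Itga1 together made up 3.46% to 9.79% of the summed FPKM of the 9 genes in IRI libraries and 28.2% to 40.7% in control libraries. In bulk RNA, fewer cells of a type and less RNA per cell cannot be told apart.

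Zfp683 lies on chromosome 4 (GRCm38, 134053838 to 134058996, plus strand). It had 1.66, 0.888 and 1.89 FPKM in KO IRI, against 48.5, 25.9 and 28.2 FPKM in KO control. It had 1.51, 1.22 and 3.06 FPKM in WT IRI, against 53.3, 53.2 and 47.3 FPKM in WT control. The highest IRI library was WT IRI 3 and the lowest control library was KO control 2, far above it. The means were 1.48 ± 0.52 FPKM in KO IRI and 34.2 ± 12.5 FPKM in KO control (SD, n = 3 each), with control 23.1 times IRI, and control was 26.6 times IRI in WT. On the log2(FPKM + 1) scale, which understates changes of low values, the IRI minus control difference was -3.80 in KO and -4.21 in WT (SE 0.29 each).

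Prdm1 encodes Blimp-1, a repressor that acts beside Hobit in mouse resident lymphocytes, and lies on chromosome 10 (44437177 to 44528501, minus strand). It had 17.9, 14.5 and 18.6 FPKM in KO IRI, against 14.1, 8.33 and 9.74 FPKM in KO control. In WT IRI it had 16.9, 13.7 and 7.63 FPKM, against 10.1, 8.06 and 10.2 FPKM in WT control. The KO groups did not overlap, an ordering found for 8.21% of tested genes, whereas WT IRI 3 lay below every WT control. The IRI minus control difference was 0.64 in KO and 0.34 in WT, the reverse of the Zfp683 sign, with an SE of 0.27 each. Without WT IRI 3, WT control 3 and KO control 1 the WT difference was 0.70.

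Runx3 encodes a runt-domain factor of cytotoxic and resident T cells and lies on chromosome 4 (135120652 to 135177990, plus strand). Its levels were 63.4, 44.2 and 47.0 FPKM in KO IRI, against 54.6, 31.8 and 50.8 FPKM in KO control. They were 40.6, 39.5 and 39.4 FPKM in WT IRI, against 40.4, 43.0 and 38.0 FPKM in WT control. The groups overlapped in both genotypes, and the IRI minus control differences were 0.19 in KO and -0.02 in WT (SE 0.22 each).

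Cxcr6 is the receptor of the chemokine CXCL16, used by resident T cells to keep their place in liver, lung and other organs. It lies on chromosome 9 (123806475 to 123811760, plus strand). It had 19.6, 27.5 and 24.8 FPKM in KO IRI, against 122, 99.9 and 89.3 FPKM in KO control. It had 21.02, 9.39 and 18.4 FPKM in WT IRI, against 106, 122 and 123 FPKM in WT control. Control was 4.33 times IRI in KO and 7.21 times in WT, and the lowest control library still lay well above the highest IRI library in each genotype. The IRI minus control differences were -2.07 in KO and -2.85 in WT (SE 0.27 each).

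Itga1 encodes integrin alpha-1 (CD49a), which pairs with beta-1 to bind collagen, and lies on chromosome 13 (114953096 to 115101964, minus strand). It had 2.45, 2.25 and 3.16 FPKM in KO IRI, against 15.9, 9.78 and 9.29 FPKM in KO control. It had 4.44, 3.56 and 4.52 FPKM in WT IRI, against 16.6, 22.0 and 16.0 FPKM in WT control. IRI libraries were below control libraries with no overlap, and KO control libraries were also below WT control libraries, an ordering of 3.69% of tested genes. Control was 4.46 times IRI in KO and 4.36 times in WT, with differences of -1.78 in KO and -1.88 in WT (SE 0.22 each).

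Itgae encodes integrin alpha-E (CD103), which pairs with beta-7 to bind E-cadherin on epithelium, and lies on chromosome 11 (73090583 to 73147446, plus strand). It had 4.53, 1.18 and 1.74 FPKM in KO IRI, against 3.22, 2.87 and 3.22 FPKM in KO control. It had 1.29, 1.144 and 0.853 FPKM in WT IRI, against 1.78, 2.16 and 1.10 FPKM in WT control. KO IRI 1 stood above all other libraries, and the IRI and control groups overlapped in each genotype. Its differences were -0.36 in KO (SE 0.33) and -0.34 in WT (SE 0.33), no more than about 1 SE from 0.

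Cd69 encodes a lectin-like protein that holds S1PR1 inside the cell and is also an early activation marker. It lies on chromosome 6 (129267325 to 129275436, minus strand). It had 164, 142 and 147 FPKM in KO IRI, against 175, 131 and 155 FPKM in KO control. It had 87.0, 94.8 and 62.3 FPKM in WT IRI, against 121, 98.1 and 106 FPKM in WT control. The KO groups overlapped, while WT IRI lay below WT control without overlap, as 14.4% of tested genes did. The IRI minus control differences were -0.02 in KO and -0.43 in WT (SE 0.20 each).

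Rgs1 encodes a regulator that shortens G-protein signals of chemokine receptors and is high in resident T cells. It lies on chromosome 1 (144242296 to 144249242, minus strand) and had the highest level of the 9 genes in every group. It had 436, 352 and 306 FPKM in KO IRI, against 255, 145 and 148 FPKM in KO control. In WT it had 202, 235 and 153 FPKM after IRI, against 245, 182 and 166.5 FPKM in controls. KO IRI was above KO control without overlap, an ordering found for 8.21% of tested genes, whereas the WT groups overlapped. The differences were 1.03 in KO and -0.01 in WT (SE 0.28 each).

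Xcl1 encodes the chemokine lymphotactin, which draws XCR1-bearing dendritic cells, and lies on chromosome 1 (164931644 to 164935527, minus strand). It had 0.864, 2.095 and 1.75 FPKM in KO IRI, against 33.4, 17.1 and 16.7 FPKM in KO control. It had 2.04, 1.42 and 2.61 FPKM in WT IRI, against 26.4, 30.7 and 30.1 FPKM in WT control. Control was 14.3 times IRI in KO and 14.4 times in WT, and no IRI library reached 3 FPKM. The differences were -3.15 in KO and -3.33 in WT (SE 0.29 each).

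**Figure D1:**
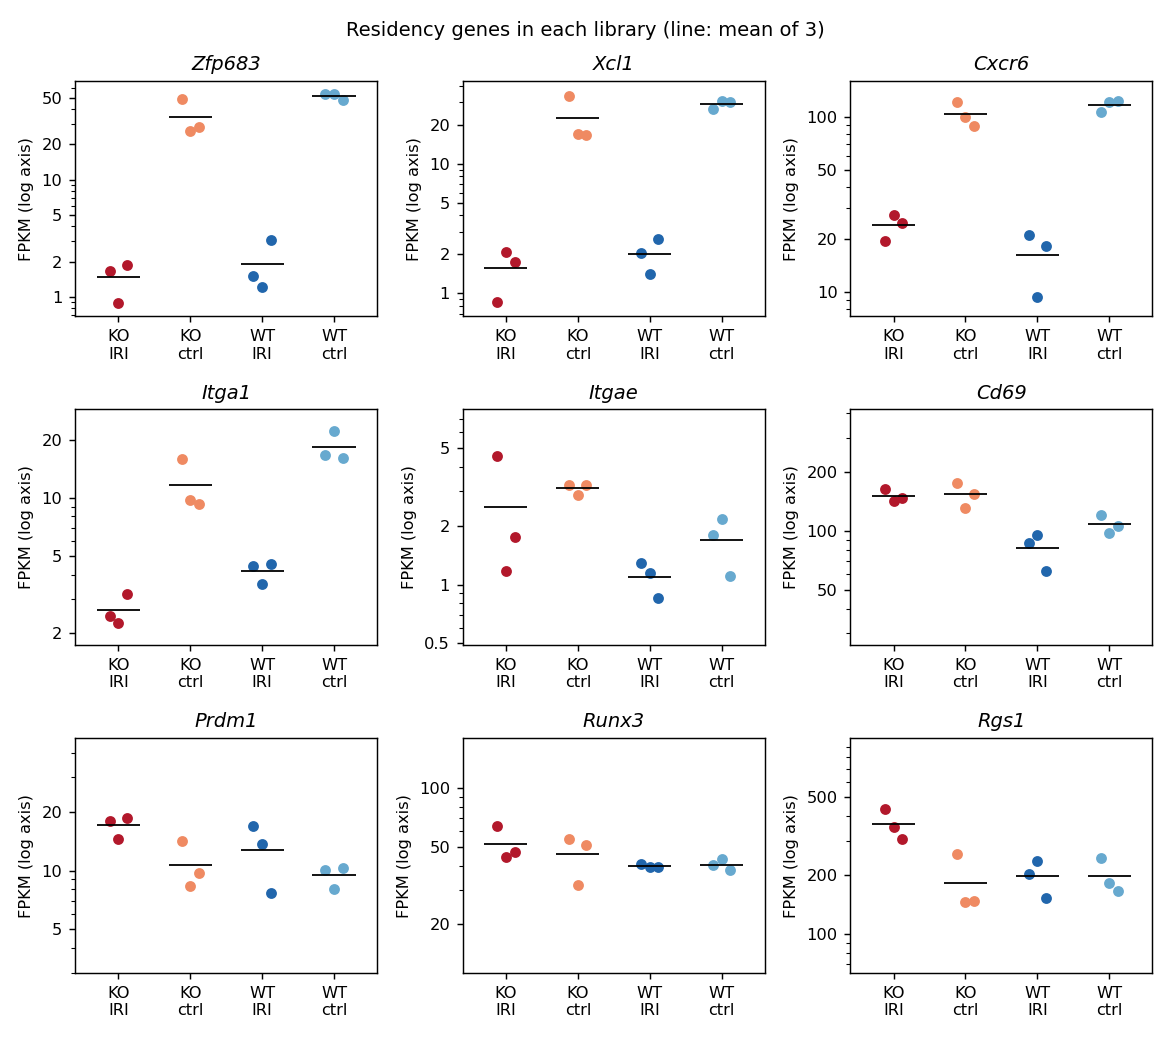
FPKM of the 9 genes in each library, on log axes, with 1 panel per gene and 4 columns of 3 libraries (KO IRI, KO control, WT IRI, WT control; points are libraries, lines are means of 3). The panels of Zfp683, Xcl1, Cxcr6 and Itga1 show the IRI columns below the control columns, and the other 5 panels show overlap in at least 1 genotype.

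**Figure D2:**
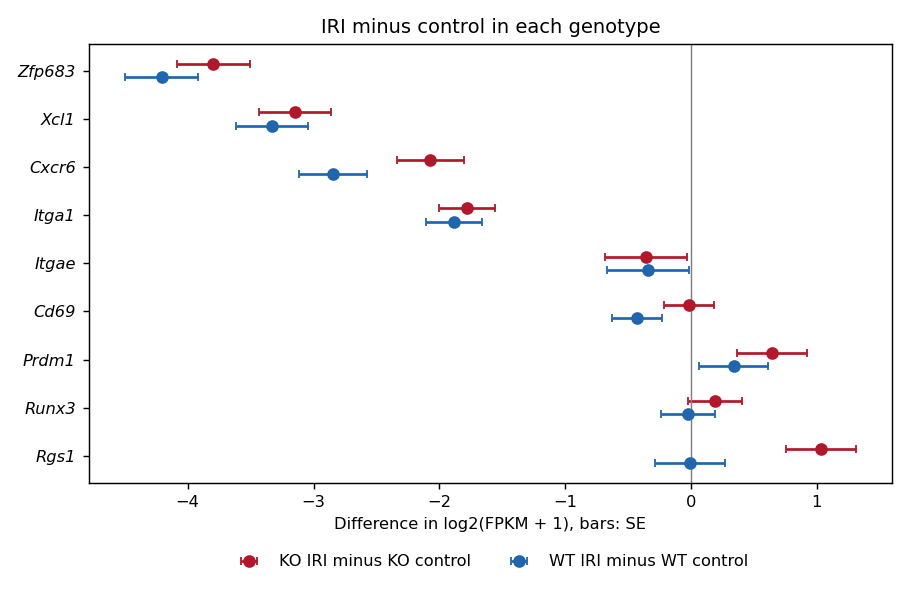
IRI minus control in log2(FPKM + 1) for each of the 9 genes (points are differences of group means and bars are SE; KO above WT within each gene). Zfp683 is at -3.80 in KO and -4.21 in WT, and Rgs1 at 1.03 in KO and -0.01 in WT.

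Among the 9 genes, the order of levels differed by group. In KO IRI the order by mean was Rgs1, Cd69, Runx3, Cxcr6, Prdm1, Itga1, Itgae, Xcl1 and Zfp683, and the last 4 overlapped in their neighbouring ranges. In KO control it was Rgs1, Cd69, Cxcr6, Runx3, Zfp683, Xcl1, Itga1, Prdm1 and Itgae. There Rgs1 and Cd69, Runx3 and Zfp683, Zfp683 and Xcl1, and Itga1 and Prdm1 overlapped. In WT IRI it was Rgs1, Cd69, Runx3, Cxcr6, Prdm1, Itga1, Xcl1, Zfp683 and Itgae, where Cxcr6 and Prdm1 overlapped, as did Xcl1 with Zfp683 and Zfp683 with Itgae. In WT control it was Rgs1, Cxcr6, Cd69, Zfp683, Runx3, Xcl1, Itga1, Prdm1 and Itgae, and only Cxcr6 and Cd69 overlapped among neighbours. Zfp683 thus stood 9th of 9 in KO IRI and 5th of 9 in KO control, 8th of 9 in WT IRI and 4th of 9 in WT control.

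Levels were then set against the summed FPKM of Cd3d, Cd3e and Cd3g, subunits of the T cell receptor complex, to see how the genes compare with a T cell scale. That sum was itself lower after IRI, at 318 to 386 FPKM in KO IRI and 517 to 799 FPKM in KO control, and at 146 to 168 FPKM in WT IRI and 457 to 486 FPKM in WT control. The median tested gene therefore had a higher ratio to it after IRI, by 0.86 log2 units in KO and 1.61 in WT. Zfp683 was at 0.430%, 0.275% and 0.593% of the CD3 sum in KO IRI, against 7.44%, 5.01% and 3.53% in KO control. It was at 0.898%, 0.832% and 1.99% in WT IRI, against 11.7%, 11.1% and 9.73% in WT control. The ratios use the same IRI values with which the set was chosen, so their orderings are descriptions and not support. On this scale Zfp683, Cxcr6, Itga1 and Xcl1 were lower in IRI without overlap in KO (1.07% of tested genes) and in WT (0.389%). Over all 6 against all 6 libraries, only Zfp683 and Xcl1 of the 9 kept this order, which 0.0933% of tested genes had, and Prdm1, Runx3, Cd69 and Rgs1 were higher there, as were 35.7%. Prdm1, Runx3, Cd69 and Rgs1 were above control in KO without overlap, as were 49.6% of tested genes, and these 4 with Itgae in WT, as were 72.0% of tested genes. Per CD3, Zfp683, Cxcr6, Itga1 and Xcl1 were lower in KO control than in WT control without overlap, an order shared by 9.36% of tested genes (3.64% were higher). In KO IRI, Zfp683, Runx3, Itga1 and Xcl1 were lower than in WT IRI per CD3, as were 49.6% of tested genes, and none of the 9 was higher, against 0.456%. None of the 9 lay apart between all 6 KO and all 6 WT libraries on this scale, against 0.0622% of tested genes higher and 1.08% lower in KO.

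**Figure D3:**
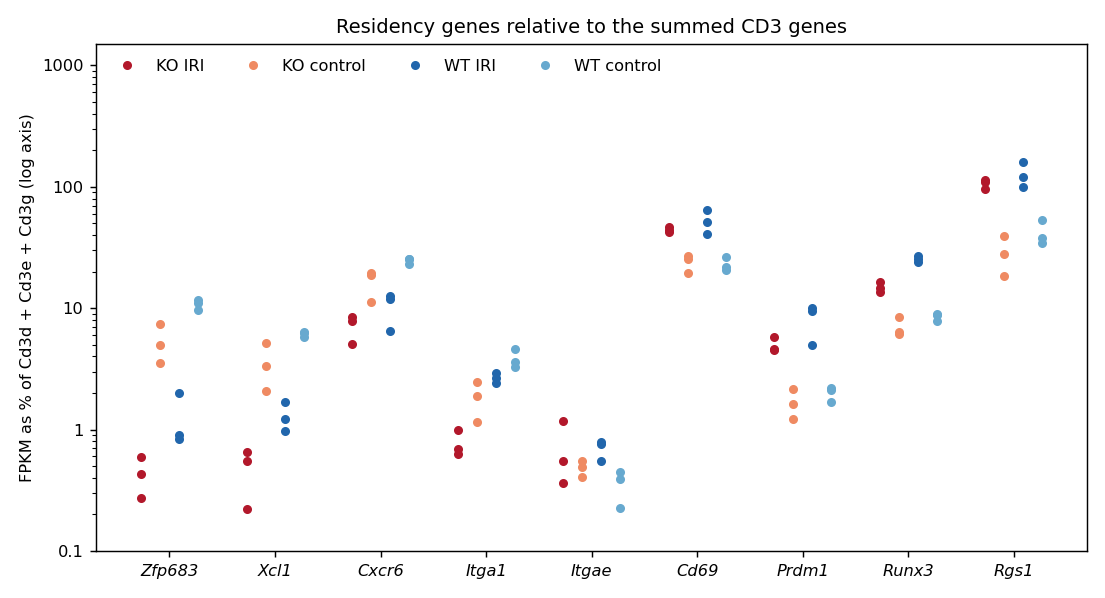
Level of the 9 genes as a percent of the summed Cd3d, Cd3e and Cd3g FPKM of the same library (log axis; points are libraries, in the 4 groups KO IRI, KO control, WT IRI and WT control). Zfp683, Xcl1, Cxcr6 and Itga1 lie lower in the IRI columns than in the control columns of each genotype, and Rgs1, Cd69, Runx3 and Prdm1 lie higher there.

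Markers of other cells moved with the injury, and their part in these results was not tested. Summed over 14 NK cell and ILC1 markers, the level was 50.1 to 105 FPKM in IRI and 123 to 235 FPKM in control libraries. None of the 14 was at 0 in all libraries, and 5 of them were under 1 FPKM in all IRI libraries, 2 in all control libraries. Of the 14, Ncr1, Gzma and Nkg7 were lower in all IRI than in all control libraries, and the other 11 overlapped. Nkg7, also among the genes most like Zfp683 below, was at 8.88 to 19.1 FPKM in IRI and 52.2 to 99.4 FPKM in control libraries. Without it the sum overlapped, at 35.8 to 89.6 FPKM in IRI and 70.8 to 150.3 FPKM in control libraries. The most abundant of the 14 in KO IRI 1 were Fcer1g, at 38.2 FPKM, and Tyrobp, at 26.6 FPKM, and such genes weigh most in the sum. Sums without them were not taken. Ncr1, the NKp46 receptor of NK cells, was at 0.0470 to 0.495 FPKM in IRI and 1.33 to 7.22 FPKM in control libraries, whereas Fcer1g, a receptor signalling chain, was at 9.76 to 38.2 FPKM in IRI and 9.79 to 38.1 FPKM in control libraries. The pair of CD8 genes summed to 2.88 to 5.76 FPKM in IRI and 7.60 to 19.4 FPKM in control libraries. The 9 CD4 T cell markers, which include the CD3 genes, summed to 585 to 1562 FPKM in IRI and 1317 to 2516 FPKM in control libraries. Cd4 itself was at 49.7 to 237 FPKM in IRI and 85.7 to 382 FPKM in control libraries, so its transcripts were present in all. Sums of neutrophil markers were 3.07 to 39.4 FPKM in IRI and 2.04 to 4.26 FPKM in control libraries. Those of 4 B cell markers were 11.7 to 114 FPKM in IRI and 36.5 to 1315 FPKM in control libraries. The 5 dendritic cell markers summed to 6.69 to 12.8 FPKM in IRI and 10.6 to 35.1 FPKM in control libraries. With the genotypes pooled, the NK cell and ILC1 sums and the CD8 sums were the only ones of the 10 lists without overlap between conditions. Within each genotype the CD4 T cell, dendritic cell and B cell sums were also lower in IRI without overlap. Of the 5 gamma-delta and NKT-like markers, 3 were in the table and summed to 7.79 to 30.4 FPKM in IRI and 7.49 to 15.4 FPKM in control libraries. The 7 macrophage markers summed to 58.9 to 153.9 FPKM in IRI and 65.1 to 289 FPKM in control libraries, and the 5 tubule markers to 3.19 to 193 FPKM in IRI and 0.323 to 60.5 FPKM in control libraries. The 4 endothelial markers summed to 24.1 to 41.5 FPKM in IRI and 23.9 to 51.8 FPKM in control libraries.

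The genes whose pattern over the 12 libraries was most like that of Zfp683 were sought among 7716 other protein-coding genes averaging 5 FPKM or more, by Pearson's r of log2(FPKM + 1). The libraries share the same 2 separated levels of Zfp683, so r orders genes by that split. Tbx21, the T-box factor T-bet of type 1 lymphocytes, had an r of 0.98, with means of 7.06 FPKM in KO IRI and 25.1 FPKM in KO control and of 6.09 FPKM in WT IRI and 30.8 FPKM in WT control. Ctsw, a protease of cytotoxic cells, and Nkg7, a granule protein, also had an r of 0.98. Ctsw averaged 8.35 FPKM in KO IRI and 46.5 FPKM in KO control, and Nkg7 averaged 14.1 FPKM in KO IRI and 63.5 FPKM in KO control. The other 7 were St3gal6 (0.98), Ly6c2 (0.97), Dock5, Slamf7, Trip4, Cpne7 and Mmp9 (0.96 each). Among the 9 genes, r with Zfp683 was 0.99 for Xcl1, 0.97 for Itga1, 0.96 for Cxcr6, 0.31 for Itgae, 0.18 for Cd69, -0.14 for Runx3, -0.50 for Rgs1 and -0.62 for Prdm1.

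In other genes of residency and exit, IRI minus control was tested by limma with adjustment over all tested genes. The 3 lists were chosen with earlier results of these data known, so their IRI calls describe these libraries and are not independent support. In that comparison 9.04% of tested genes passed an adjusted p of 0.05, 3.01% higher and 6.03% lower in IRI (580 and 1164 genes). After rescaling of the libraries the split was 6.35% higher and 7.33% lower. Of 18 partners and upstream genes, 7 were lower and none higher, with a list median of -0.64 against -0.0035 over all genes. Rescaled or under quantile normalization, 9 were lower and none higher. Tbx21 had 8.15, 5.78 and 7.25 FPKM in KO IRI, against 29.5, 23.0 and 22.9 FPKM in KO control, and 7.36, 5.32 and 5.59 FPKM in WT IRI, against 31.1, 31.4 and 29.9 FPKM in WT control. It fell by 1.94 on the log2 scale (SE 0.13, adjusted p 7.37e-05), with all 6 IRI libraries below all 6 control libraries.

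Integrin partners fell too. Itgb1, the beta-1 partner of Itga1, was at 33.0 to 128 FPKM in IRI and 140.3 to 180.5 FPKM in control libraries, a difference of -1.48 (adjusted p 0.00201). Itgb7, the beta-7 partner of Itgae, was at 23.3 to 109.5 FPKM in IRI and 89.0 to 184 FPKM in control libraries, a difference of -1.55 (adjusted p 0.00127). Il2rg, the shared chain of the IL-15 receptor, changed by -1.06 (0.00360), and Tgfbr1, Id2 and Smad3 also fell. Il2rb (-0.55, adjusted p 0.0785), Cbfb, the Runx partner (-0.46, 0.214), the Xcl1 receptor Xcr1 (-0.61, 0.0652), the Cxcr6 ligand Cxcl16 (-0.06, 0.892) and Tgfbr2 (0.16, 0.526) did not pass.

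Of the 31 other residency genes, 6 were higher and 7 lower after IRI, with a median of 0.14. Rescaled or under quantile normalization, 8 were higher and 8 lower. P2rx7, the ATP-gated channel that marks resident memory cells, was at 8.05 to 19.4 FPKM in IRI and 34.3 to 69.1 FPKM in control libraries and fell by 1.93 on the log2 scale (adjusted p 0.000348). Gpr34, a lysophosphatidylserine receptor (-1.37), and Dusp6, an ERK phosphatase (-1.28), fell as well. The inhibitory receptor Ctla4 was at 82.1 to 239 FPKM in IRI and 30.5 to 66.9 FPKM in control libraries and rose by 1.49 (adjusted p 0.000730), and Pdcd1, encoding PD-1, rose by 1.21. Cd160, a receptor of cytotoxic lymphocytes named here after its values were seen, fell by 0.89 (adjusted p 0.0463). Its levels were low, at 0.380 to 1.18 FPKM in IRI and 0.646 to 5.55 FPKM in control libraries. Its KO groups overlapped, while its WT groups did not. The cyclic AMP response modulator Crem rose by 1.51, the NF-kB inhibitor Tnfaip3 by 0.66 and the SMAD corepressor Skil by 0.55. The list count was 7 without KO IRI 2 or WT IRI 2 and 8 without WT IRI 1, WT control 1 or WT control 2, against 13 over all libraries.

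Of 20 exit and circulation genes, 18 were tested, and as deposited 4 fell while none rose, with a median of -0.20. Rescaled or under quantile normalization, 4 fell and 1 rose. Ly6c2, a surface marker of circulating effector cells, was at 1.57 to 3.80 FPKM in IRI and 17.6 to 60.5 FPKM in control libraries, a difference of -3.16 (adjusted p 1.00e-04). Cx3cr1, the fractalkine receptor, differed by -1.78, Klrg1, an inhibitory lectin of effector cells, by -1.40, and Eomes, a T-box factor, by -0.65. The exit receptor S1pr1, at 64.1 to 193 FPKM in IRI and 54.4 to 157 FPKM in control libraries, differed by 0.33 (adjusted p 0.267). Klf2, which drives S1pr1, differed by 0.50 (0.114). S1pr5 averaged 0.674 FPKM over all libraries, below the level for testing. It was at 0.127 to 0.671 FPKM in IRI and 0.602 to 1.61 FPKM in control libraries. With the deposited values and a mean of at least 5 FPKM the count was 1. Cx3cr1, Klrg1 and Eomes averaged under 5 FPKM and were not tested there.

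**Figure D4:**
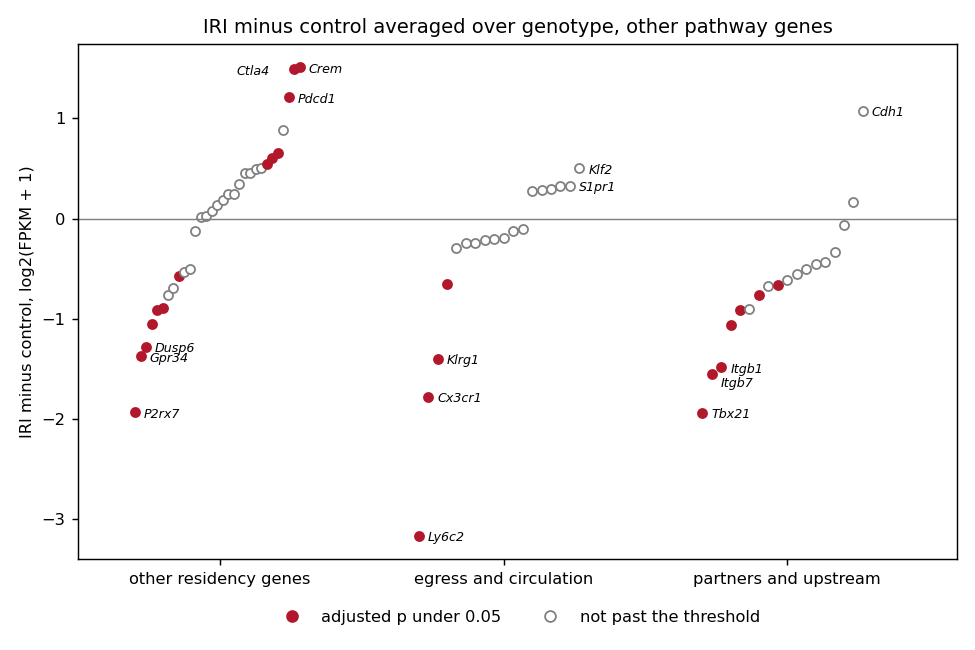
IRI minus control averaged over genotype, in log2(FPKM + 1), for the tested genes of 3 lists (31 other residency genes, 18 exit and circulation genes, 18 partners and upstream genes; points are genes in order of their value, filled where the adjusted p is under 0.05). Tbx21 at -1.94, Ly6c2 at -3.16 and P2rx7 at -1.93 lie lowest of their lists, and Ctla4 at 1.49 and Crem at 1.51 lie highest of the residency genes.

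KO against WT is independent of the contrast by which the genes were chosen. As deposited, 13.7% of tested genes passed, 11.9% higher and 1.76% lower in KO, and the median of all genes was 0.29 log2 units higher in KO. After rescaling by median ratios the median was 0.04 and 0.55% passed, 0.378% higher and 0.171% lower. KO minus WT differences are therefore given as deposited, with the rescaled value after it.

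Cd69 and Itga1 passed, in opposite directions. All 6 KO libraries had 131 to 175 FPKM of Cd69, above all 6 WT libraries at 62.3 to 121 FPKM, an order found for 3.74% of tested genes. The difference was 0.70 (SE 0.14, limma adjusted p 0.0260) as deposited and 0.38 (adjusted p 0.0608) rescaled. Under quantile normalization its adjusted p was 0.298. Itga1 was lower in KO, by -0.57 (SE 0.16, adjusted p 0.0416) as deposited and -0.85 (adjusted p 0.0407) rescaled, and its adjusted p was 0.0509 under quantile normalization and 0.0512 with a pseudocount of 5. The Cd69 call was lost on leaving out KO IRI 1, KO IRI 3, KO control 1, KO control 3 or any WT control library, with adjusted p of 0.0510 to 0.0730. The Itga1 call was lost on leaving out any library other than KO control 2, with adjusted p of 0.0556 to 0.104. Both calls were lost with no filter on low values (Cd69 0.0545, Itga1 0.0901) and without KO control 1, WT IRI 3 and WT control 3 (Cd69 0.135, Itga1 0.132).

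The other 7 genes did not pass. Zfp683 was at 0.888 to 48.5 FPKM in KO and 1.22 to 53.3 FPKM in WT libraries, with a difference of -0.42 (SE 0.21, adjusted p 0.161) as deposited and -0.68 (0.104) rescaled. In controls alone it was 34.2 ± 12.5 FPKM in KO and 51.3 ± 3.41 FPKM in WT (SD, n = 3 each), and KO control 1 overlapped the WT range. Xcl1 differed by -0.34 (adjusted p 0.242), and by -0.60 (0.128) rescaled. Itgae differed by 0.63 (0.0816), and by 0.42 (0.282) rescaled. Rgs1, at 0.37 (0.187), and Prdm1, at 0.29 (0.285), were at 0.06 (0.862) and 0.0012 (0.998) on rescaling. Cxcr6, at 0.20 (0.446), and Runx3, at 0.24 (0.265), had the other sign on rescaling, at -0.11 (0.800) and -0.07 (0.744).

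**Figure D5:**
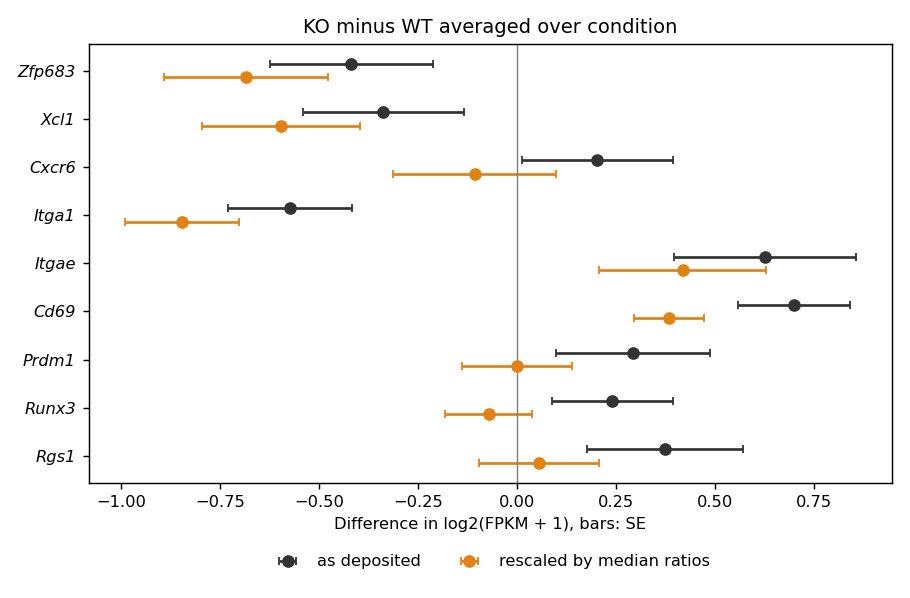
KO minus WT averaged over condition in log2(FPKM + 1) for the 9 genes (points are differences, bars are SE; as deposited above, rescaled by median ratios below). Cd69 is at 0.70 and 0.38 and Itga1 at -0.57 and -0.85, and Cxcr6 and Runx3 cross 0 between the scales.

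Within a condition, none of the 9 passed in limma. In KO IRI against WT IRI 0 of 9 passed, against 0.057% of tested genes, and 3 had an unadjusted p under 0.05. Of all 19288 tested genes, 4324 had such a p. The 3 were Cd69 and Rgs1, higher in KO IRI, and Itga1, lower there. Itga1 differed by -0.52 (unadjusted limma p 0.0397, adjusted p 0.203), and by -0.75 (adjusted p 0.174) rescaled. Cd69 differed by 0.91 (adjusted p 0.0914), and by 0.61 (0.116) rescaled, and Rgs1 by 0.89 (0.130), and by 0.60 (0.234) rescaled. The KO IRI libraries of both and of Runx3 were above the WT IRI libraries without overlap, as were 24.9% of tested genes. Without KO control 2, Cd69 passed there with an adjusted p of 0.0481. In KO control against WT control 0 of 9 passed, against 0.0259% of tested genes, and 2 had an unadjusted p under 0.05. These were Itga1, lower in KO control at -0.63 (unadjusted limma p 0.0172), and Cd69, higher at 0.49 (0.0310). Of all 19288 tested genes, 4022 had such a p. Rescaled, 4 of the 9 had one, all lower in KO control: Zfp683, Itga1, Rgs1 and Xcl1, against 2129 of all tested genes. Itgae and Cd69 were higher in KO control without overlap, as were 20.1% of tested genes.

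The genotype by IRI interaction asks whether the IRI difference itself differed between KO and WT. None of the 9 passed in limma, against 0.00518% of tested genes. Of the 9, 1 had an unadjusted p under 0.05, as did 646 of 19288 tested genes. That 1 member was Rgs1, chosen here after its values were seen, with a difference of differences of 1.04 (SE 0.39, unadjusted p 0.0235, adjusted p 0.9995), and of 1.08 (adjusted p 0.906) rescaled. Rescaled, 2 of the 9 had an unadjusted limma p under 0.05, Rgs1 (0.0049) and Cd69 (0.028), as did 940 of all tested genes. As deposited, Cxcr6 had 0.77 (SE 0.38), Zfp683 0.41 (SE 0.41), Cd69 0.41 (SE 0.28) and Xcl1 0.18 (SE 0.41).

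Markers of other cells also differed between genotypes, and their part in the genotype differences was not tested. B cell markers summed to 201 to 1315 FPKM in KO control and 36.5 to 96.0 FPKM in WT control, and CD8 markers to 12.2 to 19.4 FPKM in KO control and 7.60 to 7.97 FPKM in WT control. CD4 T cell markers summed to 1194 to 1562 FPKM in KO IRI and 585 to 678.5 FPKM in WT IRI, and to 1628 to 2516 FPKM in KO control and 1317 to 1421 FPKM in WT control.

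The other lists had more calls between genotypes as deposited than after rescaling. Of 18 exit and circulation genes, 9 passed higher in KO and 0 lower, with S1pr1 at 0.96 (adjusted p 0.0230), Ccr7 at 0.95 and Klf2 at 0.66. After rescaling, 0 of the 18 passed, with 7 at an unadjusted p under 0.05, against 4125 of 19288 tested genes. On that scale S1pr1 was at 0.65, Ccr7 at 0.63 and Klf2 at 0.34. Without any one of KO IRI 1, KO control 1, KO control 3, WT control 1 or WT control 2, 0 passed, and 3 to 5 without any other library but KO control 2. Of 18 partners, 5 passed higher in KO, among them Itgb7 at 1.06 (0.0232) and Tgfbr2 at 0.84 (0.0213). After rescaling 1 passed, Tgfbr2 at 0.53 (0.0378), with Itgb7 at 0.75 (0.0582). Of 31 residency genes, 5 passed higher and 1 lower, with Ctla4 at 0.75 (0.0314) and Qpct at -0.66 (0.0469). After rescaling 1 passed, Ldlrad4, which was at 1.06 (0.0165) as deposited and 0.77 (0.0182) rescaled, with Ctla4 at 0.43 (0.111) and Qpct at -0.88 (0.0738). These 2 counts were 0 to 3 without any one library other than KO control 2 and, for the residency genes, WT IRI 2. None of the 3 lists had a gene past the threshold for the interaction in limma. At an unadjusted p under 0.05 were 2 residency genes, 2 exit genes and 0 partners, against 646 of 19288 tested genes.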

How the data were processed

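Values were FPKM as deposited by the authors, per the file headers, for 12 libraries each made from 1 ng of total RNA. GRCm38, Partek 7.0, Cufflinks 2.2.1, TopHat2 2.1.0 and bcl2fastq 2.17.1.14 are named in the submitters' processing notes. What each did, the annotation release and the strand setting are not given in the sources used here. Depth is unknown, so no counting error is attached. Symbols were found for 52399 IDs, and 52485 IDs matched GENCODE mouse release 21. Genes averaging 1 FPKM or more were tested with limma 3.58.1 in R 4.3.3 (lmFit, then eBayes with trend). The fit took log2(FPKM + 1) of all 12 libraries and gave each group its own mean, with Benjamini-Hochberg adjustment over all tested genes and a threshold of 0.05. The fit was tested on simulated data. Rescaling divided each library by its median ratio over 16018 genes. The 9 genes, the lists and the tests were chosen with earlier results of these data known. The text names all 9 genes, up to 8 called genes per list with the smallest adjusted p plus a fixed set of partners, and the 10 genes most like Zfp683. The CD3 ratio was added later, as a description.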

Additional observations from a re-analysis of the deposited data

How the results depend on the processing

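Averaged over genotype, the IRI minus control differences of Zfp683, Xcl1, Cxcr6 and Itga1 kept their sign under all 20 alternatives. Zfp683 ranged over -4.61 to -2.79, Xcl1 over -3.79 to -2.15, Cxcr6 over -2.56 to -2.24 and Itga1 over -2.09 to -1.22, with the smallest sizes of Zfp683, Xcl1 and Itga1 under a pseudocount of 5. These 4 genes were lower without overlap, so their kept sign is a description and not support. Runx3 kept its sign under 19 of 20 alternatives, Itgae under all 19 that held it, and Prdm1, Cd69 and Rgs1 under all 20. Within a genotype, Cd69 in KO kept its sign under 14 of 20, Rgs1 in WT under 16, Runx3 in WT under 17 and Runx3 in KO under 19. Except where a filter removed genes, the causes of the count changes below were not tested.

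For KO minus WT, the 9 genes had 2 calls, against 1 under a pseudocount of 5, 1 rescaled, 0 with no filter, 0 under quantile normalization and 0 without KO control 1, WT IRI 3 and WT control 3 together. The exit list had 9 calls, against 2 with no filter and 0 rescaled, under quantile normalization or without those 3 libraries. The partner list had 5 calls, against 1 with no filter, 1 rescaled, 0 under quantile normalization and 0 without the 3 libraries. The residency list had 6 calls, against 1 with no filter, 1 rescaled, 1 under quantile normalization and 0 without the 3 libraries. All genes had 2639 calls, against 211, 106, 54 and 51 in that order.

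For IRI minus control, all genes had 1744 calls, against 1081 with no filter, 2639 rescaled (1225 higher, 1414 lower), 2644 under quantile normalization (1170 higher, 1474 lower) and 1062 without the 3 libraries (531 each way). The exit list had 4, against 1 at a mean of at least 5 FPKM, where Cx3cr1, Klrg1 and Eomes were not tested. It had 2 without the 3 libraries, and the partner list had 7, against 4 without them. For KO minus WT in controls all genes had 5 calls, against 10 and 3 under pseudocounts of 0.1 and 5 and 29 without the 3 libraries. After IRI they had 11, against 0 under a pseudocount of 5, 81 at a mean of at least 5 FPKM and 18 without the 3 libraries. For the interaction they had 1, against 0 under a pseudocount of 5, 3 with no filter and 20 without the 3 libraries.

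Leaving out 1 library at a time gave 0 to 3 calls among the 9 genes for KO minus WT and 0 to 1 after IRI. It gave 7 to 13 residency calls for IRI and 0 to 11 for genotype, 3 to 4 and 0 to 11 exit calls, and 5 to 9 and 0 to 8 partner calls. Over all genes it gave 1044 to 2544 for IRI, 40 to 5857 for genotype, 4 to 1806 in controls, 1 to 456 after IRI and 0 to 11 for the interaction. The highest counts for genotype, in controls and after IRI came without KO control 2.

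The values do not settle whether replicate numbers pair the samples. Over 18 same-numbered pairs the deviations correlated at -0.04 to 0.20, 1 of them over 0.1. That pair, WT IRI 3 with WT control 3, had the highest correlation between groups, and 7 of 12 libraries correlated best with their own number. With a replicate block, KO minus WT gave 1 call among the 9 genes, 5 in the exit list and 1687 over all genes, and KO minus WT after IRI gave 3. The call lost among the 9 genes was Itga1 (adjusted p 0.0607).

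Unknown depth limits the low values: Itgae and, after IRI, Zfp683 and Xcl1 lie near 1 FPKM, and their errors there cannot be split into counting and other error.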
